A study of Mus musculus with 3 samples.

Results

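E14 mouse embryonic stem cells, a line with a 129/Ola background, were profiled as single cells after 3 h in 10 µM tubercidin and compared with cells that received an equal volume of the solvent DMSO. The comparison uses 2 of the 3 libraries of the study, and 4396 of its 7322 cells: 2365 cells after 3 h and 2031 control cells. A barcode counted as a cell when it held at least 2961 UMIs (3 h) or 11033 UMIs (control), at least 500 detected genes, and at most 20% of its UMIs from mitochondrially encoded genes. A UMI is a tag that marks 1 captured RNA molecule. All cultures grew in serum with leukemia inhibitory factor, and the 2 conditions differ in exposure as well as in drug: DMSO stayed on the control cells for 6 h. The third library, cells after 6 h in tubercidin, is used only for levels set beside those of the comparison. Each condition is 1 library, so no difference between conditions was tested against replicates and no p-value is given. For each gene the UMIs of all cells of a library were summed and scaled to counts per 1000000 UMIs (CPM). The ratio of 3 h over control was taken on the scale of CPM + 1, and "lower" and "higher" below mean past 2-fold unless another size is given. Bracketed ranges are exact 95% intervals of the CPM ratio without the added 1, in log2 units, and cover the error of counting UMIs only.

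Tubercidin is the deaza form of adenosine, with 1 ring nitrogen of the base exchanged for carbon. Cells take it up through nucleoside transporters, adenosine kinase phosphorylates it, and it can enter RNA in place of adenosine. Transcripts differ in how fast they are made and degraded: those of immediate-early genes, of signalling feedback inhibitors and of many transcription factors are short-lived, while those of ribosomal proteins and glycolytic enzymes last long. Mouse embryonic stem cells in serum and leukemia inhibitory factor depend on STAT3, KLF and ESRRB activity, secrete FGF4 and divide quickly with a short G1 phase.

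Apart from Asns in the last set, the sequences below belong to genes whose levels differed past 2-fold. Their capitals mark letters that the results on histone genes, transcript ends and promoters refer to. Transcript lifetimes were not measured. The first set holds the stem-loop of replication-dependent histone messenger RNAs, the element that takes the place of a poly(A) tail in most of these transcripts. The stem and its loop are in capitals, and all 4 lie in the exonic 3′ UTR of GENCODE transcripts on GRCm38, the assembly also called mm10. Hist1h2ap and Hist1h1e were lower at 3 h, and Hist1h2bg and Hist4h4 were higher.
Hist1h2ap (chr13:21833026-21833051, minus strand): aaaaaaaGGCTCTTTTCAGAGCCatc
Hist1h1e (chr13:23621775-23621804, minus strand): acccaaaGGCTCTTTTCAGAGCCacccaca
Hist1h2bg (chr13:23571836-23571865, plus strand): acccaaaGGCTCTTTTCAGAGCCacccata
Hist4h4 (chr6:136803991-136804020, minus strand): ccacaaaGGCCCTTTTCAGGGCCcacaaag

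The letters TATTTAT, a core found in AU-rich elements of short-lived messenger RNAs, stand in capitals in the next set, again from the exonic 3′ UTR of GENCODE transcripts on GRCm38. These 6 genes were all lower at 3 h and encode an RNA decay factor, signalling inhibitors, a transcription factor and cell cycle regulators.
Zfp36l1 (chr12:80108168-80108194, minus strand): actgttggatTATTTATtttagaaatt
Socs3 (chr11:117966134-117966160, minus strand): catatatttaTATTTATactcagaaaa
Spry2 (chr14:105892054-105892080, minus strand): aaaaaaagaaTATTTATtttaagaggc
Gbx2 (chr1:89928420-89928446, minus strand): atacactaaaTATTTATtatacaaccc
Plk3 (chr4:117128701-117128727, minus strand): aacagacattTATTTATtgggatgtga
Cdkn1b (chr6:134925267-134925293, plus strand): tatactaactTATTTATgttaaaaaga

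The last set holds 2 promoters from RefSeq on GRCm38.p6, 250 bases before to 50 bases after the start of the gene. Capitals mark TGATGNAAN on either strand, letters of the composite C/EBP-ATF site through which ATF4 acts. Chac1 was among the genes furthest below their control level, and Asns, a classical ATF4 target, was near it.
Chac1 (chr2:119350992-119351291, plus strand): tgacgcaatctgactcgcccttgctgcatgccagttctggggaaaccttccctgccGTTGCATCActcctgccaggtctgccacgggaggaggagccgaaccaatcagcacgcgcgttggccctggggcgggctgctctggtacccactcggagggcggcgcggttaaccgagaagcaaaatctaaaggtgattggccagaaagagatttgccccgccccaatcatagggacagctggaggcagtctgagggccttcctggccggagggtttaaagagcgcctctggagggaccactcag
Asns (chr6:7693160-7693459, minus strand): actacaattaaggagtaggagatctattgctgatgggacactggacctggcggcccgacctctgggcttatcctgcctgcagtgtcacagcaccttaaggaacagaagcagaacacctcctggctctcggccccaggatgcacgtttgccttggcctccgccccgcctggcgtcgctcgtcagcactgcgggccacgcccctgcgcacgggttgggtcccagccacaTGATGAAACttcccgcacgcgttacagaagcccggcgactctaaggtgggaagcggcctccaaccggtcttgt

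Summed over cells, the control library held 104892739 UMIs and the 3 h library 29892000. The median cell had 48452 UMIs and 7083 genes in the control and 11877 UMIs and 3293 genes at 3 h. How much of this gap is RNA per cell and how much is sequencing depth cannot be told apart from counts. Mitochondrially encoded genes took 2.95% of UMIs in control cells and 3.43% at 3 h, and the libraries shared 1 cell barcode. The 11 stem cell markers were all present in both libraries, at a summed 4596 CPM in control cells and 5511 CPM after 3 h; most of both sums was Dppa5a (2549 and 3555 CPM), while Zfp42 had 712 and 437 CPM. Of 9 markers of 2-cell-like cells found in the gene table, 8 were at 0 in the control and all 9 at 3 h. Fibroblast markers summed to 0.963 CPM and 1.37 CPM, markers of primitive endoderm to 8.88 CPM and 6.72 CPM, and those of trophoblast to 39.5 CPM and 45.8 CPM, the last mostly Krt8 and Tfap2c. Of the neural set, Tubb3 made up most of 106 CPM and 149 CPM, while Sox1, Pax6 and Nes were at 3.66, 4.50 and 4.16 CPM in control cells and at 1.57, 2.34 and 1.91 CPM after 3 h. The part of other cell types in the results was not tested.

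Lower genes outnumbered higher genes at 3 h. Of 7872 genes that averaged 10 CPM or more over the 2 libraries, 468 were lower (5.95%) and 59 were higher (0.749%). The other 7345 were within 2-fold. Counts of lower and higher genes in the lists below are to be read beside these shares of all genes. A change of 4-fold or more was rare, with 14 lower and 10 higher genes. The whole distribution was shifted: the median gene had a log2 ratio of −0.28, and 73.5% of genes lay below 0. CPM are shares of a library, and abundant transcripts such as those of ribosomal proteins took a larger share at 3 h, which by arithmetic leaves less for the rest. Scaling by median-of-ratios size factors instead moved the median by 0.22, to −0.06, and left 192 genes lower and 121 higher. Higher genes were then 38.7% of those past 2-fold, in place of 11.2%. The genes that left the lower group had the smaller ratios or fell under 10 CPM; of those described below, Fen1, Ccne2, H2afx, Tcf7l1, Hsf2, Nfkb1, Birc2, Rbbp6, Idi1, Pfn1 and Psmg1 were within 2-fold under this scaling. Groups of genes are therefore also described by the distance of their median from that of all genes, which the scaling of a whole library leaves nearly as it is. Counted from the median gene, 154 genes (1.96%) were at least 2-fold below it and 149 (1.89%) at least 2-fold above it.

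**Figure D1:**
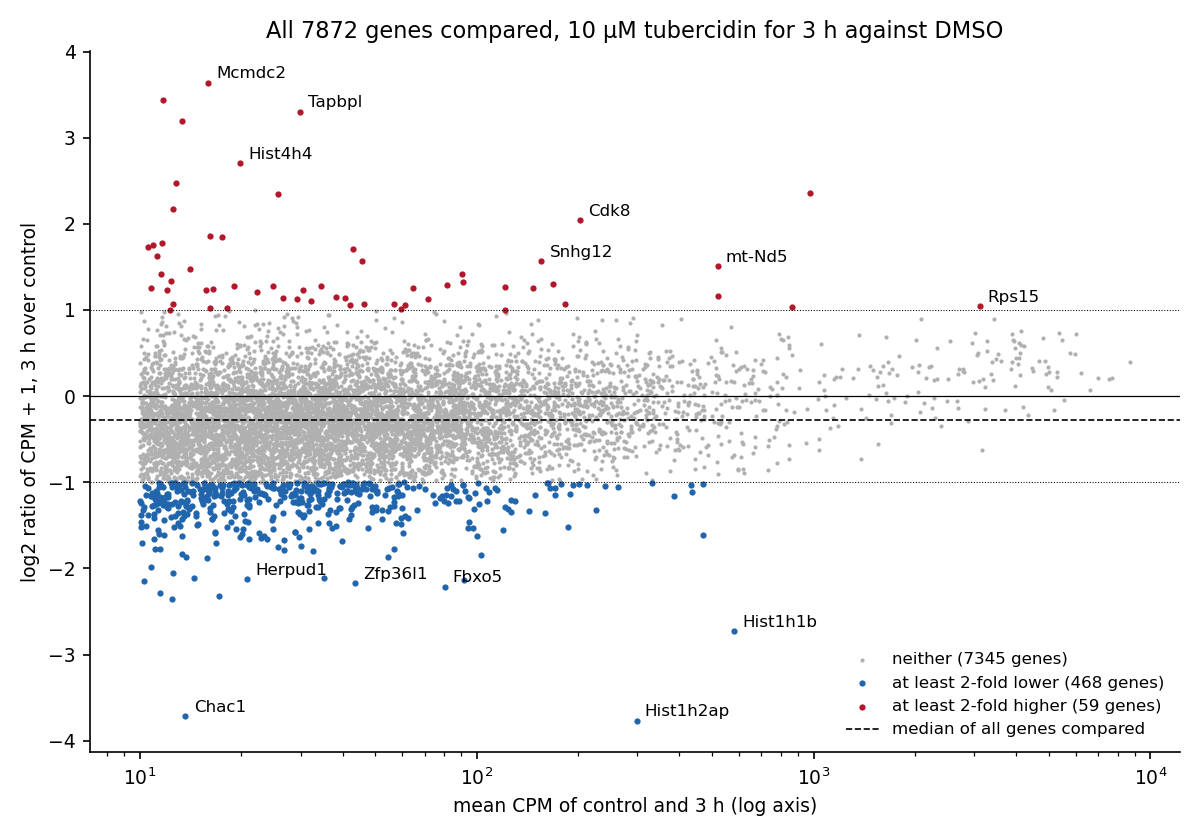
Log2 ratio of CPM + 1 (3 h over control) against the mean CPM of the 2 libraries on a log axis, 1 point per gene for 7872 genes; 468 lower genes are blue and 59 higher genes red. The dashed line is the median of all genes, −0.28, and lies below 0; Hist1h2ap and Chac1 are lowest and Mcmdc2 is highest.

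Replication-dependent histone genes lay past 2-fold in both directions and held the lowest ratio on the CPM + 1 scale. These genes are transcribed in S phase, packaging new DNA. Hist1h2ap, a histone H2A gene, had 556 CPM in control cells, 39.98 CPM after 3 h and 16.3 CPM after 6 h. It was thus 13.6-fold lower at 3 h [−3.88, −3.72], with the ratio of Chac1 close to it; without the added 1 CPM Chac1 lay lower. Hist1h1b, a linker histone gene and the most abundant of the group, had 1009 CPM in control cells, 152 CPM after 3 h and 396 CPM after 6 h. Its level was lowest at 3 h, 6.61-fold under the control, and higher again at 6 h. Hist1h1e went from 150 CPM to 33.3 CPM, with 53.03 CPM after 6 h. Linker histone genes made up 4 of the 8 lower members, with Hist1h1c (61.4 and 18.5 CPM) and Hist1h1a (116 and 48.6 CPM). The other lower members encode histone H2A: Hist1h2ap, Hist2h2ac, Hist1h2ae and Hist1h2an.

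The 5 higher histone genes were all scarce in the control. Those under 10 CPM there, Hist4h4 and Hist1h2br, passed the filter only through their 3 h level. Hist4h4, a histone H4 gene, had 4.52 CPM in control cells, 35.03 CPM after 3 h and 4.70 CPM after 6 h. It stood 6.53-fold higher at 3 h [2.80, 3.11] and at 6 h lay close to its control level. Hist1h2bg had 10.7 CPM, 27.3 CPM and 7.495 CPM in the same order. Hist1h2br (5.83, 17.3 and 2.76 CPM) and Hist1h2bb (10.3, 21.9 and 9.56 CPM) likewise were high in the 3 h library alone of the 3. With 8 lower and 5 higher among 30 compared, the median of the group lay 0.01 above that of all genes (and below it in some settings). The summed level of all 67 genes found, compared or not, nonetheless went from 2829 to 1080 CPM. The stem-loop was found in a GENCODE transcript of 5 of the 8 lower genes, 4 of the 5 higher genes and 13 of the 17 others. The search covered annotated bases only, and short models, such as the 393 bases of Hist1h2an, may end before the element. These counts therefore cannot decide whether the element separates the groups. With size factors 8 genes were lower and 8 higher. Libraries primed on poly(A) record these transcripts only in part, and H2A copies of near-identical sequence can share reads, so the split between Hist1h2ap, Hist1h2an and their relatives is uncertain. Replacement histones, most of which are expressed throughout the cell cycle with poly(A) tails, included 1 lower gene of 10, H2afx, with 581 CPM in control cells and 283 CPM after 3 h.

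Genes of mitosis were lower more often than all genes compared, and genes of DNA replication less often. Of 78 G2/M and mitosis genes, 15 were lower (19.2%, against 5.95% of all genes) and none was higher. Their median lay 0.23 below that of all genes. With size factors 8 stayed lower, and Anln, Hjurp, Kif20b, Prc1 and the condensin genes did not. Of 59 S-phase replication genes, 1 (1.69%) was lower: Fen1, with 44.7 and 20.7 CPM. None was higher, and the list median lay 0.09 below that of all genes. Fbxo5, which encodes the inhibitor EMI1 of the anaphase-promoting complex, had 133 CPM in control cells, 27.9 CPM after 3 h and 25.04 CPM after 6 h. It was 4.63-fold lower [−2.35, −2.15], the lowest of the mitotic list, and low in both drug libraries. Mki67, the source of the Ki-67 proliferation antigen, had 146 CPM, 49.8 CPM and 94.1 CPM. Cdk1, the mitotic kinase, had 143 CPM, 59.5 CPM and 47.8 CPM. Centromere and spindle genes in the lower group were Sgo2a, Sgo1, Aspm, Knl1, Hjurp, Kif20b, Prc1, Anln and Aurkb, and condensin genes were Smc2, Smc4 and Ncaph. The highest members were Kifc1 (54.8 and 86.8 CPM), Fzr1 (52.0 and 78.6 CPM) and Cdca5 (29.4 and 42.6 CPM), all within 2-fold. Whether the proportions of cells in each phase differed between the libraries was not tested.

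Regulators of the G1 phase and of arrest split. Cdkn1b, the inhibitor p27, had 35.8 CPM in control cells, 10.97 CPM after 3 h and 9.56 CPM after 6 h. E2f7, a repressive E2F factor, went from 19.9 to 7.59 CPM, and Ccne2, an E-type cyclin, from 21.8 to 9.07 CPM. Ccnd1, a D-type cyclin, had 52.9 CPM in control cells and 88.0 CPM after 3 h, within 2-fold. Of 19 G1 genes compared, 3 were lower (15.8%, against 5.95% of all genes) and none higher.

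Immediate-early genes, which serum and growth factors switch on within minutes, had the lowest median of the 57 lists. Just 7 of the 27 found reached 10 CPM; 4 of these were lower (57.1%) and 1 was higher, and their median lay 0.83 below that of all genes. Junb, an AP-1 subunit, had 42.3 CPM in control cells, 11.5 CPM after 3 h and 30.5 CPM after 6 h. Ier2 had 177 CPM, 70.8 CPM and 36.6 CPM in that order. Both were low at 3 h, but at 6 h Junb was nearer to the control and Ier2 lower still. Jund, another AP-1 subunit, had 149 CPM, 68.4 CPM and 90.6 CPM. Klf10, a TGF-beta-inducible zinc finger repressor, ran the other way with 19.8 CPM in control cells, 49.3 CPM after 3 h and 39.7 CPM after 6 h, 2.42-fold higher at 3 h. Under size factors Junb and Ier2 stayed lower, Jund was within 2-fold, and Ier5l (15.0 and 5.42 CPM) was not compared because its mean fell under 10 CPM.

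Feedback inhibitors of signalling were low together with the ligand FGF4. FGF4 activates ERK in these cells, and Sprouty and SPRED proteins restrain that pathway. Fgf4 had 85.9 CPM in control cells, 22.9 CPM after 3 h and 35.1 CPM after 6 h, 3.64-fold lower at 3 h [−2.02, −1.80]. Spry4 had 17.7 CPM, 4.48 CPM and 2.67 CPM. Spry2 had 57.2 CPM, 19.4 CPM and 37.2 CPM. With Spred2 (79.1 and 31.8 CPM) these made 4 lower genes of 11, and the median of the list lay 0.51 below that of all genes. Not all ERK-linked genes were low: the ETS factors Etv4 (77.4 and 100.6 CPM) and Etv5 (88.6 and 102 CPM) and the receptor gene Fgfr2 (94.8 and 117 CPM) were above their control levels, within 2-fold.

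The LIF-STAT3 list showed 4 lower genes of 13 and a median 0.33 below that of all genes. Socs3, the feedback inhibitor of JAK kinases, had 22.2 CPM in control cells, 9.40 CPM after 3 h and 24.0 CPM after 6 h. It was low in the 3 h library alone. Pim3 (53.9 and 18.8 CPM) and Pim1 (47.1 and 23.0 CPM), kinases induced by STAT3, and Gbx2, a homeobox factor downstream of STAT3, were the other lower members. Stat3 itself had 46.4 CPM and 35.2 CPM. Among BMP and Nodal genes, 4 of 17 were lower (23.5%, against 5.95% of all genes). Id1, the BMP-induced inhibitor of helix-loop-helix factors, had 90.9 CPM in control cells, 29.6 CPM after 3 h and 24.4 CPM after 6 h. Smad7, the inhibitory SMAD, had 85.2 CPM, 30.04 CPM and 54.9 CPM. The ligand genes Bmp4 (48.3 and 20.2 CPM) and Nodal (25.6 and 12.1 CPM) were also lower, whereas the Nodal co-receptor gene Tdgf1 had 226 CPM and 370 CPM. Tcf7l1, a repressive factor of the WNT pathway, was the 1 lower gene among 11 of that pathway (123 and 59.7 CPM). Socs3, Pim1, Bmp4 and Nodal were within 2-fold under size factors.

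Pluripotency factors were divided. Of 15 genes of the naive network, 4 were lower: Gbx2, Fgf4, Tbx3 and Klf2. Gbx2 had 22.1 CPM in control cells, 5.32 CPM after 3 h and 3.12 CPM after 6 h. Tbx3, a T-box factor, had 88.3 CPM, 25.2 CPM and 36.8 CPM. Klf2 had 230 CPM, 89.0 CPM and 39.3 CPM. The median of the naive list lay 0.20 below that of all genes, but Esrrb (102 and 131 CPM) and Tcl1 (59.6 and 70.4 CPM) were above their control levels. In the core list 3 of 23 were lower and the median lay 0.43 above. Sox2 had 205 CPM in control cells, 80.6 CPM after 3 h and 81.1 CPM after 6 h. Its partner Pou5f1 had 137 CPM, 159 CPM and 213 CPM, so the pair ran in opposite directions. Zfp281 was another lower core member (44.7 and 16.2 CPM). Other homeobox-list regulators that were low included Hes1, a Notch-responsive repressor, with 47.0 CPM in control cells, 13.3 CPM after 3 h and 18.9 CPM after 6 h, and Six4 (19.5 and 6.39 CPM).

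**Figure D2:**
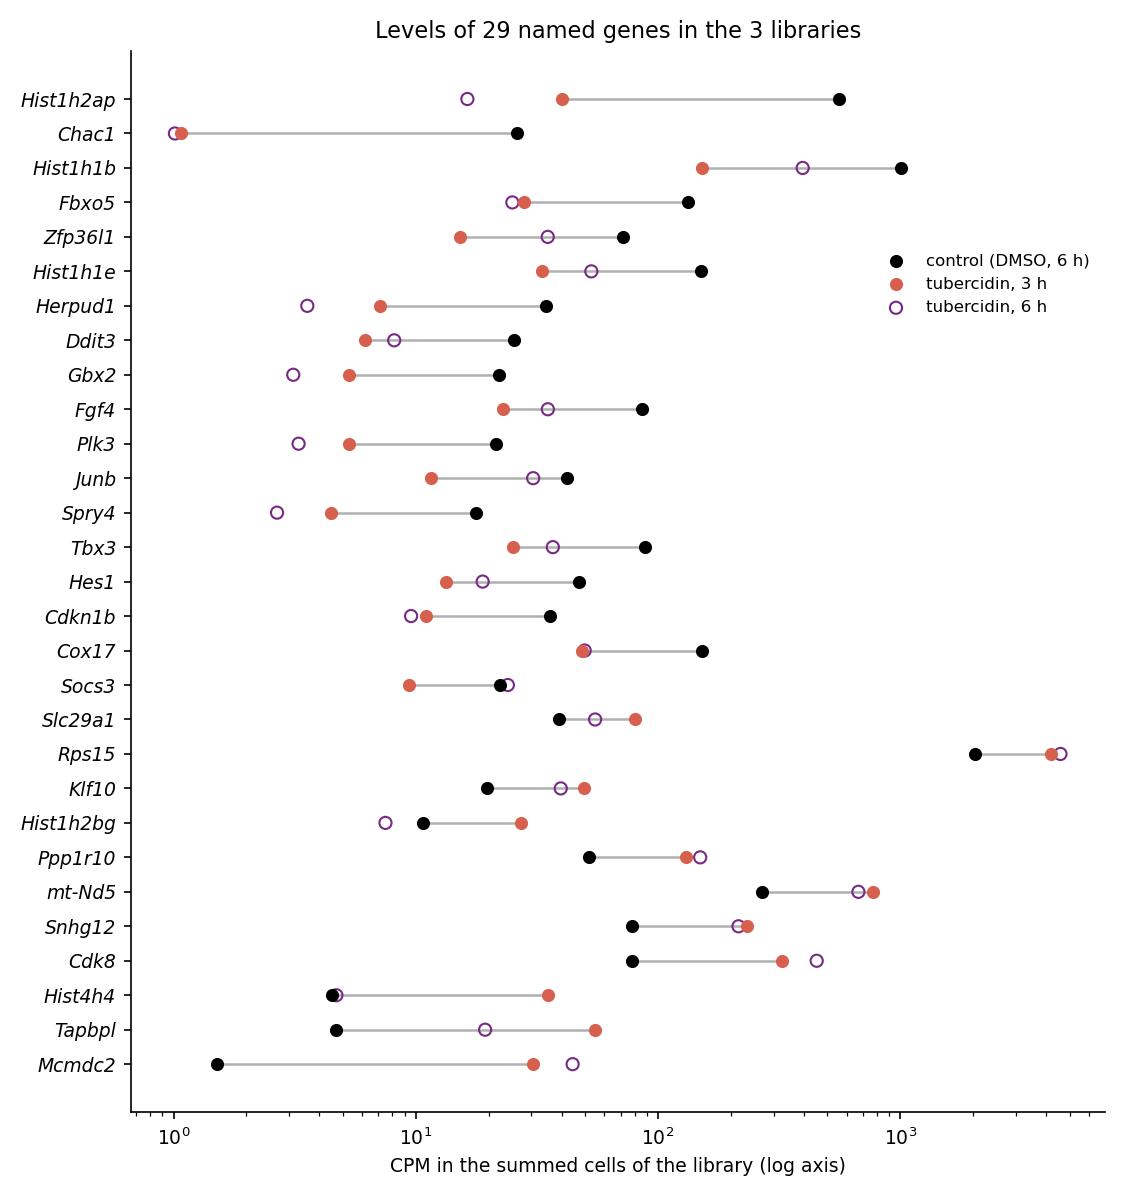
CPM of 29 named genes on a log axis in the control (black), the 3 h library (red) and the 6 h library (open circles); the grey line joins control and 3 h. Genes lower at 3 h are on top and genes higher at 3 h at the bottom; Hist4h4 and Socs3 show 6 h circles close to the control, while those of Chac1 and Cdk8 lie near or beyond the 3 h points.

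Stress pathways gave no joint increase, and several of their regulators were lower. The integrated stress response acts through the factor ATF4, which drives amino acid synthesis and transport genes. Chac1, a glutathione-degrading enzyme under ATF4, had 26.2 CPM in control cells, 1.07 CPM after 3 h and 1.01 CPM after 6 h. That is 13.2-fold lower on the CPM + 1 scale, and because 32 UMIs remained at 3 h the range of the ratio is wide [−5.17, −4.11]. Ddit3, the factor CHOP, had 25.4 CPM, 6.19 CPM and 8.14 CPM. Atf4 had 182 CPM, 77.6 CPM and 63.6 CPM, low in both drug libraries. Cebpg (31.2 and 10.7 CPM), Ddit4 (16.8 and 6.59 CPM) and Ppp1r15a, which encodes GADD34 (19.7 and 7.86 CPM), completed the 6 lower genes of 25, and none was higher; under size factors 5 stayed lower and Atf4 did not. The median of the list lay 0.21 below that of all genes. Among its amino acid enzymes, Asns had 289 CPM and 293 CPM and Shmt2 103 CPM and 155 CPM, whereas Cth had 92.2 CPM and 56.7 CPM and Psph 144 CPM and 91.2 CPM. The letters TGATGNAAN occurred in 5 of the 21 promoters of this list that RefSeq gives, against 124 of 6301 promoters of all genes compared (1.97%). Of the 6 lower genes, the Chac1 promoter alone held them, and so did the promoters of Asns, Trib3, Pycr1 and Nupr1, none of which was lower.

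In the unfolded protein response of the endoplasmic reticulum, 1 of 23 genes was lower. Herpud1, an adaptor for degradation of misfolded proteins, had 34.4 CPM in control cells, 7.13 CPM after 3 h and 3.57 CPM after 6 h. The chaperone gene Calr had 469 CPM and 556 CPM, and the median of the list lay 0.05 above that of all genes, but below it in some settings. Heat shock chaperones showed 1 lower gene of 27, the factor gene Hsf2 (43.9 and 20.8 CPM), and Hspb1 had 1289 CPM and 1648 CPM. Of 33 p53 targets, 3 were lower (9.09%) and 1 was higher (3.03%), against 5.95% and 0.749% of all genes. Their median lay 0.30 above that of all genes. Plk3, a stress-responsive polo-like kinase, had 21.4 CPM in control cells, 5.29 CPM after 3 h and 3.28 CPM after 6 h. Dcxr, a sugar reductase, was the higher one (11.6 and 24.6 CPM), and Eda2r, a TNF receptor family member, had 19.2 CPM and 32.9 CPM, within 2-fold. None of 12 BCL2 family genes and none of 16 NRF2 and oxidative stress genes was past 2-fold. Nfkb1 (28.4 and 13.6 CPM) and Birc2 (23.0 and 10.5 CPM) were lower among 7 NF-kB genes, though not under size factors. Yet 4 of the 7 lay above the median gene, and the list median lay 0.28 above that of all genes.

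Numbered zinc finger protein genes, most of which encode DNA-binding repressors, formed the largest low group. Of 129 compared, 33 were lower (25.6%), none was higher, and 105 lay below the median gene. Under size factors 16 of 124 compared were lower. Of those lost, Zfp74 and Zfp105 kept ratios past 2-fold but fell under the mean of 10 CPM. The median of the 129 lay 0.39 below that of all genes. The summed level of all 365 genes found, compared or not, was 7383 CPM in control cells, 4629 CPM after 3 h and 5001 CPM after 6 h. Zfp74 had 16.0 CPM, 4.22 CPM and 5.96 CPM. Zfp990, the most abundant of the 8 lowest, had 140 CPM, 48.0 CPM and 33.5 CPM; zinc finger genes of this kind have close copies, and reads may be shared. Zfp318 had 45.6 CPM, 13.9 CPM and 18.9 CPM. At the other end, Zfp367 had 21.9 CPM and 36.6 CPM.

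Most genes of the transcription machinery were within 2-fold, as were 7345 of all 7872 genes compared. The list of RNA polymerase II and Mediator leaves out the Mediator kinase gene Cdk8 (higher, described below). Of its 40 genes, 5 were lower (12.5%, against 5.95% of all genes) and none was higher. The list median lay 0.07 below that of all genes. Polr2l, a small subunit shared by all 3 RNA polymerases, had 47.9 CPM in control cells, 15.8 CPM after 3 h and 21.8 CPM after 6 h. Mediator members among the lower genes were Med30 (37.5 and 12.2 CPM), Med31 (27.9 and 9.47 CPM), Med7 (49.9 and 22.8 CPM) and Med28 (84.4 and 40.1 CPM). In the list of pause control and elongation, 3 of 33 were lower (9.09%, against 5.95% of all genes). Brd2, a BET bromodomain reader of acetylated histones, had 176 CPM, 76.2 CPM and 76.8 CPM. Mepce (32.5 and 14.3 CPM), which caps the small RNA that restrains P-TEFb, and Mllt3 (19.7 and 8.60 CPM), a super elongation complex subunit, were the others, and all 3 were within 2-fold under size factors, as were Med7 and Med28. Subunits of RNA polymerases I and III included no gene past 2-fold among 30. None of 32 Polycomb and Trithorax genes was past 2-fold. In the DNA methylation list 1 of 14 was lower: Mbd4, a thymine glycosylase, had 25.6 CPM and 7.93 CPM. DNA repair genes leaned low without large ratios, with 1 of 35 lower (Fanca, 56.2 and 22.3 CPM) and 27 of 35 below the median gene.

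Genes for RNA processing stayed mostly within 2-fold, as did most of all genes compared. None of 32 SR protein and speckle genes was past 2-fold, with Srsf11 (226 and 336 CPM) and Srsf3 (684 and 1009 CPM) at the upper end and Rbm5 (77.9 and 38.9 CPM) at the lower. Of 70 core spliceosome and hnRNP genes, 3 were lower, though not under size factors, among them Lsm8 and Lsm1. In cleavage and polyadenylation, Clp1 (48.3 and 19.1 CPM) and Rbbp6 (145 and 68.8 CPM) were lower among 35, and Pabpn1, the nuclear poly(A)-binding protein, had 283 CPM and 528 CPM. None of 17 m6A methylation genes was past 2-fold, and 13 of 17 lay below the median gene. In mRNA decay, Zfp36l1, a protein that binds AU-rich elements and recruits deadenylases, had 72.0 CPM in control cells, 15.2 CPM after 3 h and 35.05 CPM after 6 h. It was 4.51-fold lower at 3 h [−2.38, −2.11]; Exosc3, an exosome subunit, was the other lower gene of 49 (60.9 and 23.95 CPM).

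Host transcripts of small nucleolar RNAs went both ways, with 2 lower (11.1%) and 3 higher (16.7%) of 18. Of all genes, 5.95% were lower and 0.749% higher. Snhg12 had 78.0 CPM in control cells, 233 CPM after 3 h and 215 CPM after 6 h, 2.97-fold higher at 3 h [1.53, 1.63]. Snhg4 had 96.7 CPM, 240 CPM and 206 CPM. Dancr had 86.1 CPM, 207 CPM and 251 CPM, so all 3 were high in both drug libraries. Snhg8 (112 and 47.9 CPM) and Snhg6 (28.2 and 13.3 CPM) were the lower ones, within 2-fold under size factors. Among long noncoding RNAs that stay in the nucleus, 2 of 9 were lower. Kcnq1ot1, the imprinted antisense RNA of the Kcnq1 locus, had 139 CPM, 50.1 CPM and 41.7 CPM, whereas Malat1 had 3185 CPM, 3615 CPM and 2355 CPM.

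Ribosomal protein genes took a larger share of the transcriptome at 3 h. Their summed level was 235110 CPM in control cells, 298240 CPM after 3 h and 259970 CPM after 6 h. Only Rps15 passed 2-fold of 79 compared, but 76 of 79 lay above the median gene, and the list median lay 0.60 above that of all genes. Rps15 had 2027 CPM in control cells, 4194 CPM after 3 h and 4585 CPM after 6 h. Rpl35 (1059 and 638 CPM) and Rps28 (3168 and 2596 CPM) were among the exceptions. Translation factors showed 2 lower and 1 higher gene of 63: Eif3k, an initiation factor subunit, had 567 CPM and 1161 CPM, and Eif3j2, whose copy Eif3j1 can share its reads, had 80.1 CPM and 33.7 CPM. Ribosome biogenesis held Ddx56, a nucleolar helicase (36.3 and 77.1 CPM), on the high side and Rpp38, a subunit of RNase P and RNase MRP (28.1 and 10.1 CPM), on the low side of 74 genes. Their median lay 0.13 above that of all genes, although the summed level went from 20559 to 17358 CPM. No cytosolic tRNA synthetase gene of 20 was past 2-fold.

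Energy metabolism genes lay above the median gene as groups. So did abundant genes and short transcripts: the 260 genes with a mean of 500 CPM or more had a median 0.46 above that of all genes. For the 549 genes with transcripts under 1000 bases it lay 0.29 above. Neither these lists nor the ribosomal protein genes were compared with genes of like abundance or length. Glycolysis genes had a median 0.36 above that of all genes, but none of 17 compared was past 2-fold. The summed level of all 20 found was 6275 CPM in control cells, 8807 CPM after 3 h and 7450 CPM after 6 h. Gapdh had 2394 CPM, 4454 CPM and 3152 CPM, the largest ratio of the list, while Hk2 (272 and 139 CPM), the hexokinase of the first step, was the lowest. None of 80 nuclear-encoded oxidative phosphorylation genes was past 2-fold; the median lay 0.36 above, with Cox4i1 (1458 and 2704 CPM) highest. Cox17, a copper chaperone for cytochrome oxidase that is not in that list, had 152 CPM in control cells, 48.7 CPM after 3 h and 49.8 CPM after 6 h. Of the 13 mitochondrially encoded genes, 11 lay above the median gene and the list median lay 0.49 above it, but the ends of the list diverged. Encoding complex I subunits, mt-Nd5 had 269 CPM, 768 CPM and 672 CPM, and mt-Nd3 had 444 CPM, 221 CPM and 219 CPM. Their ratios pointed in opposite directions, 2.85-fold higher for mt-Nd5 and just past 2-fold lower for mt-Nd3. Under size factors Gapdh and Cox4i1 were past 2-fold and mt-Nd3 was not.

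In the supply of nucleosides, Slc29a1, the equilibrative nucleoside transporter ENT1, was the 1 gene past 2-fold of 20 in the adenosine and methyl cycle list. It had 39.1 CPM in control cells, 80.0 CPM after 3 h and 54.98 CPM after 6 h. Mymx, a muscle fusion gene whose annotated end lies 1364 bases upstream of it on the same strand (chr17:45600971-45602102, GRCm38), was also higher, with 37.8 CPM and 91.6 CPM. Mat2a, the methionine adenosyltransferase, was lowest in the list with 484 CPM and 264 CPM, within 2-fold. Among 18 cholesterol genes Idi1, an isomerase of the pathway, was lower (54.0 and 26.1 CPM), and 16 were within 2-fold. Solute carriers gave 3 lower and 3 higher of 91; besides Slc29a1 the higher ones were Slc16a4 (4.47, 17.5 and 31.0 CPM) and Slc22a14 (4.36, 16.8 and 24.8 CPM), both with more at 6 h than at 3 h. Mgat5b, a glycosyltransferase, had 29.4 CPM, 5.09 CPM and 9.40 CPM. In the cytoskeleton, Pfn1, the actin-binding profilin, had 594 CPM in control cells, 275 CPM after 3 h and 178 CPM after 6 h, the 1 lower gene of 20. Proteasome genes held 1 lower of 43 (Psmg1, an assembly chaperone, 75.8 and 36.0 CPM).

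**Figure D3:**
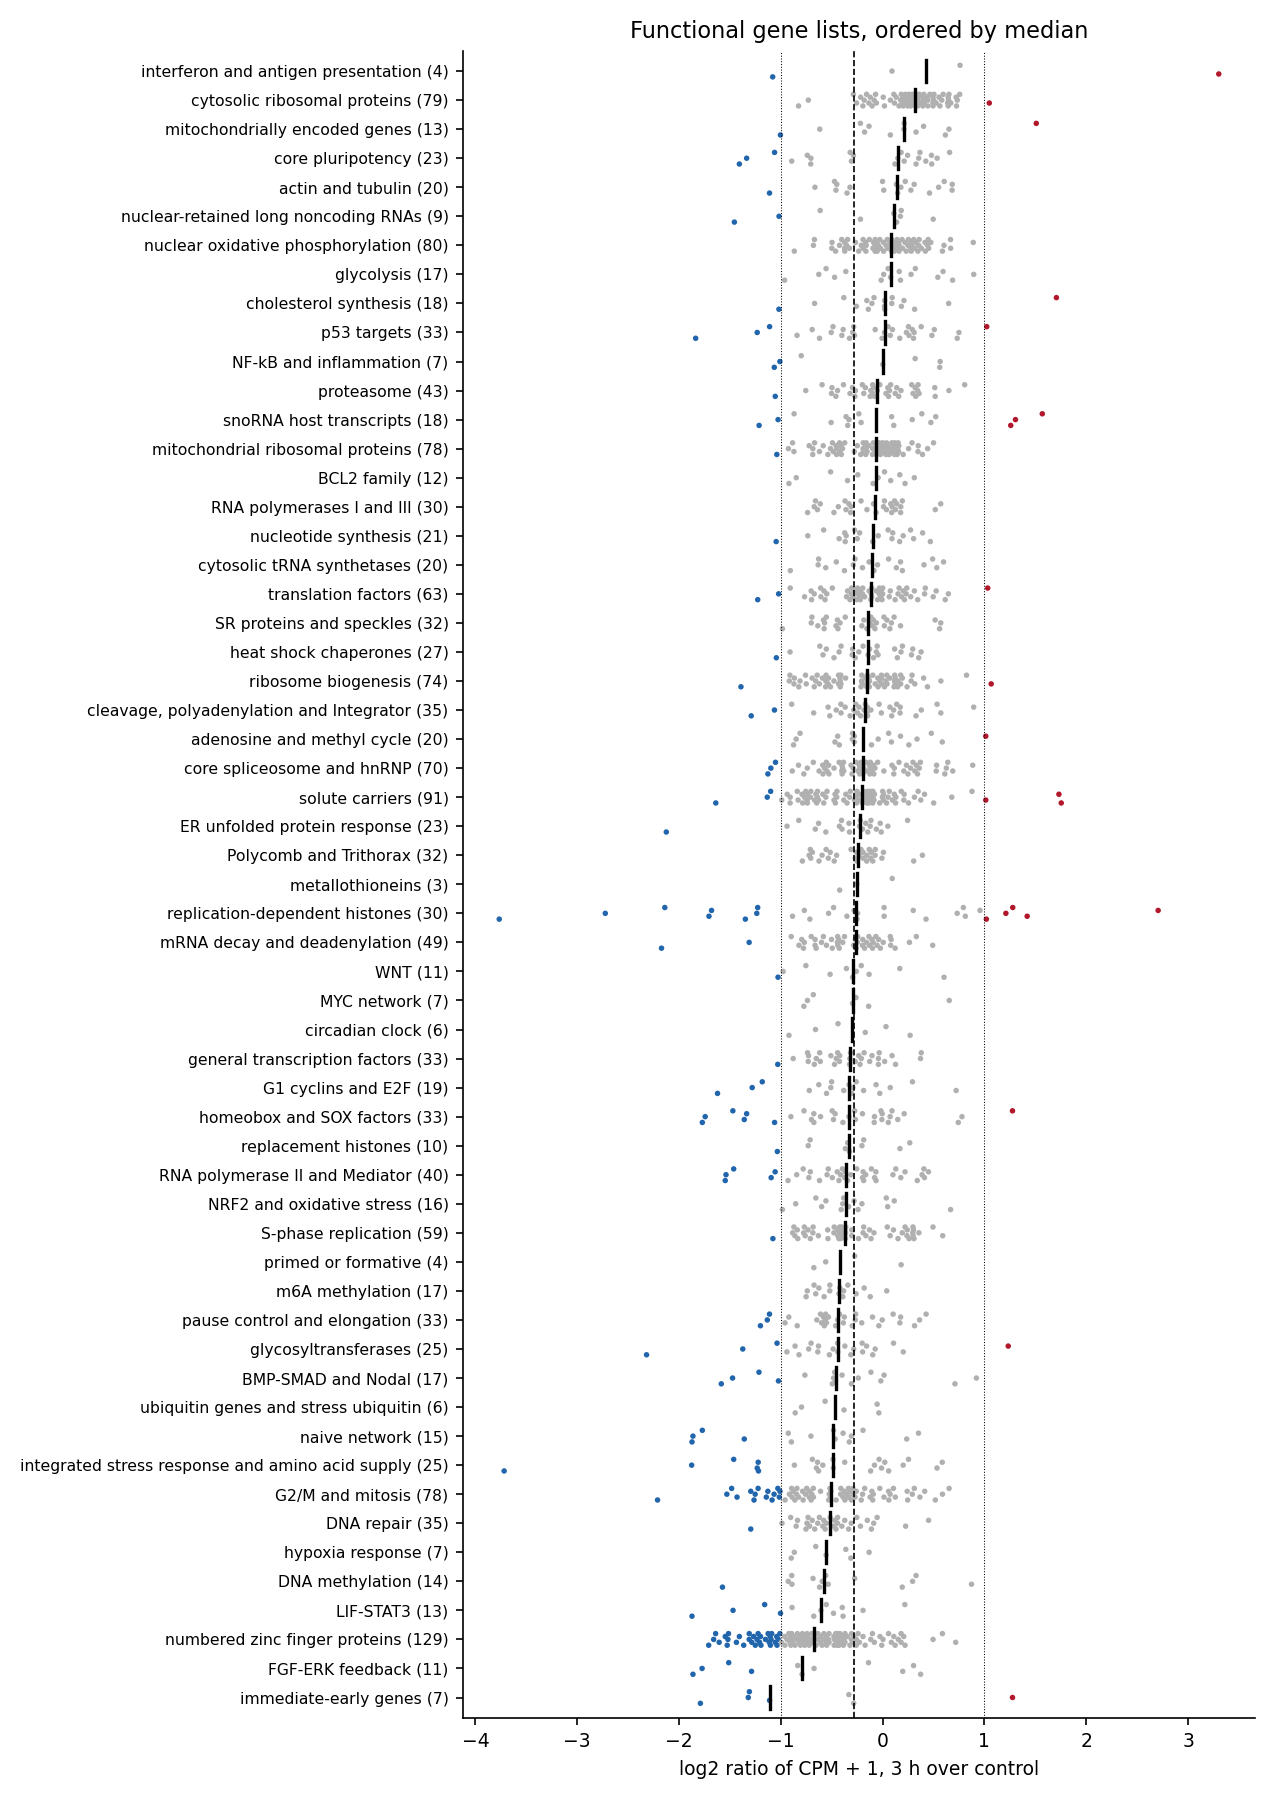
Log2 ratio of CPM + 1 (3 h over control) of each compared member of the functional lists, 1 point per gene, with lower genes blue and higher genes red; the number of genes is in brackets, black bars are list medians, the dashed line is the median of all genes (−0.28) and the dotted lines mark 2-fold. Lists are ordered by median, from immediate-early genes and FGF-ERK feedback at the bottom to ribosomal protein and mitochondrially encoded genes near the top.

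Most lower genes belonged to no list: 134 of 468 lower genes, 20 of 59 higher genes and 1693 of all 7872 were members. Among the 40 lowest, Cited2, a hypoxia-inducible regulator that binds coactivators, had 57.9 CPM in control cells, 12.7 CPM after 3 h and 10.2 CPM after 6 h. Smim26, a small membrane protein, had 21.5 CPM, 3.41 CPM and 2.47 CPM. Bcl7a, a subunit of BAF chromatin remodellers, had 20.8 CPM, 4.25 CPM and 7.17 CPM. Others of the 40 were Bloc1s4 (24.1 and 4.82 CPM), which encodes a BLOC-1 subunit, Bet1l (36.8 and 11.01 CPM), a Golgi SNARE, and Tmem199 (40.1 and 11.2 CPM), an assembly factor of the proton pump. Nkiras1, a Ras-like regulator of NF-kB inhibitors, had 17.8 CPM and 3.75 CPM. Mir124a-1hg, a host transcript of the microRNA miR-124a, had 19.7 CPM, 3.25 CPM and 2.51 CPM. Rnaseh1 (18.3 and 5.29 CPM), which cuts RNA in DNA hybrids, Mgst3 (20.6 and 6.02 CPM) and Abt1 (41.2 and 12.2 CPM), an activator of basal transcription, lay further inside the 40.

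Several of the highest ratios belonged to genes that were scarce in the control. Any gene under 10 CPM in the control reached the minimum mean only through its 3 h level. Scarcity in the control among the higher genes is thus partly fixed by the filter. Mcmdc2, a meiotic relative of the replicative helicase, had 1.52 CPM in control cells, 30.3 CPM after 3 h and 44.4 CPM after 6 h, 12.5-fold higher at 3 h [4.08, 4.58]. Tapbpl, the peptide editor TAPBPR of MHC class I, had 4.69 CPM, 55.1 CPM and 19.3 CPM. Msh4, a meiotic mismatch repair relative, had 3.92 CPM, 21.1 CPM and 21.1 CPM. All 3 were high in both drug libraries, with Tapbpl closer to the control at 6 h. Cdk8, the Mediator kinase, was more abundant in the control and had 78.4 CPM, 326 CPM and 452 CPM. Ppp1r10, a nuclear scaffold of protein phosphatase 1, had 51.7 CPM, 131 CPM and 149 CPM. Ifitm3, an interferon-inducible membrane protein, had 321 CPM, 717 CPM and 584 CPM. Fgf17 (22.6, 68.8 and 38.4 CPM), a ligand of FGF receptors, was high where Fgf4 was low. Lars2, a mitochondrial tRNA synthetase gene, had 47.0 CPM and 116 CPM; its log2 ratio, 1.29, became 6.43 when the profile of barcodes below the cells, taken as free RNA, was subtracted at 10% of UMIs. So large a ratio requires that the subtraction removed nearly all of its control level, so it does not measure a larger rise. Rab26os (7.79, 43.8 and 83.9 CPM) and Man2c1os (6.78, 17.3 and 20.3 CPM) are antisense genes, as is Kcnq1ot1 above; whether counting used the strand is not given in the sources used here, so reads of their partners cannot be told apart. The annotated ends of Mcmdc2 (chr1:9908638-9942085, plus strand) and Snhg6 (chr1:9941959-9944118, minus strand) overlap, so the same limit applies to that pair. Of 12 higher genes with predicted names, Gm26917 was named after its values were seen, with 318 CPM, 1637 CPM and 552 CPM.

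The shift of gene groups was visible in single cells. Each cell was thinned to 4000 UMIs, which left out 122 of 2365 cells at 3 h and no control cell; 1 UMI is then 0.025% of a cell. The share of a list covers all its members found, including those not compared. The ribosomal protein share had a median of 23.8% in control cells (10th to 90th percentile 20.2 to 26.9%) and of 30.6% at 3 h (26.0 to 33.8%). Of the cells at 3 h, 86.7% lay above the 90th percentile of control cells. The share of zinc finger genes was 0.725% (0.525 to 0.975%) in the control and 0.450% (0.300 to 0.675%) at 3 h, and 68.3% of cells at 3 h lay below the 10th percentile of control cells. Glycolysis took 0.625% and 0.875%, with 58.2% of cells at 3 h above the control's 90th percentile. G2/M genes took 0.875% (0.600 to 1.33%) and 0.675% (0.450 to 1.00%), so the ranges overlapped widely. For histones the medians were 0.275% and 0.0750%, and the range in control cells (0.0500 to 0.550%) was wider than at 3 h (0.0250 to 0.225%), where the median is 3 UMIs. The naive network took 0.200% and 0.125%, and replacement histones 0.675% and 0.475%. Without thinning the medians were 23.8% and 30.5% for ribosomal protein genes, 0.719% and 0.448% for zinc finger genes, 0.619% and 0.869% for glycolysis, 0.878% and 0.668% for G2/M genes and 0.303% and 0.0895% for histones. Cells of 1 library are not replicates of a condition, and these ranges describe the 2 libraries only.

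**Figure D4:**
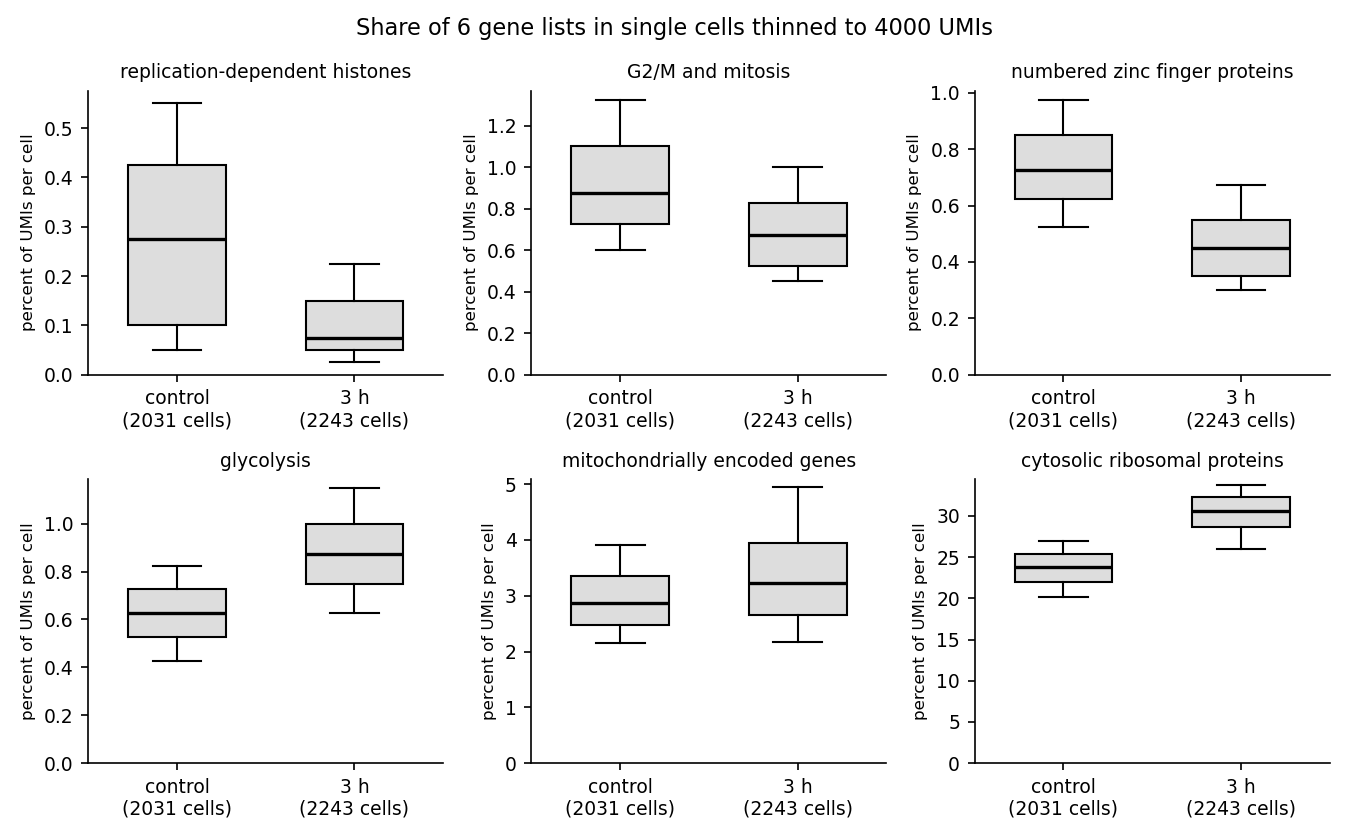
Percent of a cell's UMIs in 6 gene lists after thinning to 4000 UMIs, for 2031 control cells and 2243 cells at 3 h; boxes span the quartiles with the median as a line, and whiskers the 10th to 90th percentiles. Boxes of the ribosomal protein, zinc finger and glycolysis lists do not overlap between the libraries, those of mitochondrially encoded genes do.

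Gene structure was read from GENCODE M21 on GRCm38, which matched all 7872 genes. Genes past 2-fold in either direction had fewer exons, with a median of 7 in lower and 5 in higher genes against 10 over all genes compared. Of 151 genes with a single exon, 19.2% were lower and 6.62% higher, while of 2648 genes with 10 to 19 exons 4.15% were lower. Histone genes were 27 of the single-exon genes; of the other 124, 16.9% were lower. Counted from the median gene the single-exon genes leaned to neither side, with 11.3% at least 2-fold below it and 11.9% at least 2-fold above it. The final 500 bases of the longest transcript had a median GC content of 39.8% in lower genes, 47.0% in higher genes and 43.2% over all. Below 35% GC, 10.0% of 1244 genes were lower, and at 55% or more 3.12% of 672. Counted from the median gene these shares were closer, 3.38% and 2.23%, with the smallest, 1.12%, at 50 to under 55%. TATTTAT, searched on the transcript strand in the same 500 bases, was present in 21.3% of 461 lower genes and in 12.9% of 7805 genes overall. Genes without it were lower in 5.34% of cases, with 1 match in 9.02%, and with 2 or more in 14.6% of 130 genes. Counted from the median gene the 3 shares were 1.78%, 2.28% and 6.92%. AT-rich letters occur more often where GC is low, so both were crossed: at 40 to under 45% GC, 10.3% of 204 genes with TATTTAT and 5.19% of 1521 without it were lower, and below 35% GC, 11.2% of 285 and 9.70% of 959. Counted from the median gene, genes with TATTTAT did not exceed those without it at 35 to under 40% GC (1.85% and 1.94%) or at 45 to under 50% GC (0.775% and 1.24%). By abundance, the lower genes were 8.92% of 2030 genes with a mean of 10 to under 20 CPM and 0.385% of the 260 with 500 CPM or more. These shares count genes, which are not independent samples, and were given no test.

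Some higher genes lay just behind another expressed gene. A compared gene ended less than 1000 bases upstream on the same strand for 134 genes, of which 4 (2.99%) were higher. For 471 genes it ended 1000 to under 5000 bases upstream, and 8 of these (1.70%) were higher. Of 49 genes that overlapped such a gene, 0 were higher. At 20000 bases and over the share was 0.576% of 6249. Cd68, a macrophage lysosomal protein, begins 782 bases behind the end of Eif4a1 (1259 CPM in control cells) and had 8.97 CPM in control cells and 22.5 CPM after 3 h. Polg2, a mitochondrial polymerase subunit, begins 817 bases behind Ddx5 and had 9.43 CPM and 23.7 CPM. Hmces, a sensor of abasic sites, begins 339 bases behind Copg1 and had 118 CPM and 248 CPM. Msh4 begins 1148 bases behind Rabggtb. Cd68, Polg2 and Msh4 were under 10 CPM in the control and were compared only through their 3 h level. A gene scarce in the control enters the count only if it was high at 3 h, so these shares are partly fixed by the filter. Of 178 long noncoding genes, 10.1% were lower and 9.55% higher; counted from the median gene, 3.93% were at least 2-fold below it and 14.6% at least 2-fold above it.

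**Figure D5:**
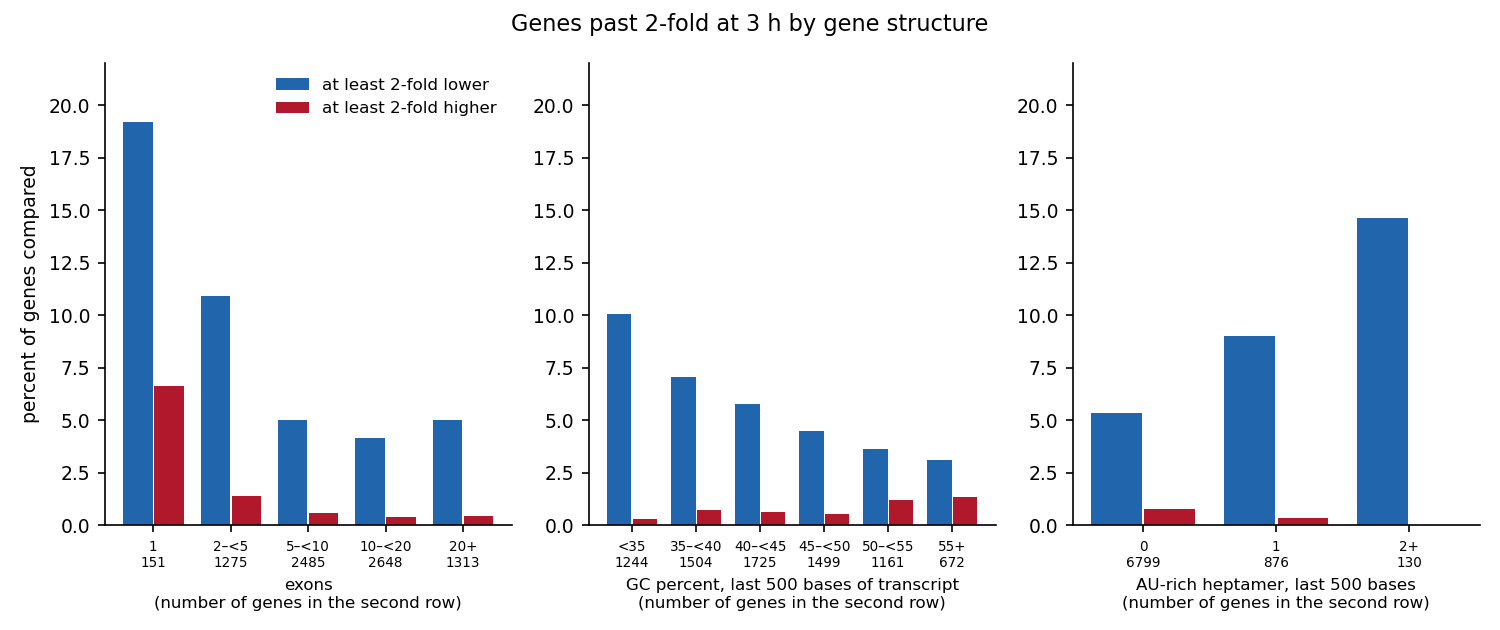
Percent of genes at least 2-fold lower (blue) and higher (red) at 3 h by number of exons, by GC content of the last 500 transcript bases and by the number of AU-rich heptamers there; the number of genes stands under each pair of bars. The share of lower genes goes from 19.2% at 1 exon to 4.15% at 10 to 19 exons, and from 10.0% to 3.12% with rising GC; both spans are narrower in percentage points when counted from the median gene.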

How the data were processed

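Counts are UMIs per gene and barcode, deposited by the authors as unfiltered matrices; Cell Ranger 7.1.0 made them, per the file headers, on mm10, per the submitters' processing notes. The gene annotation and the treatment of introns and strand are not given in the sources used here. The members, gene lists (57) and thresholds were chosen with earlier results of these data known. The minimum UMIs per cell is the 99th percentile of the 3000 largest barcodes of each library, divided by 10. No doublet caller was run. Genes averaging 10 CPM or more were compared on log2(CPM + 1) in Python 3.11.15 with numpy 2.4.6 and scipy 1.17.1; this understates the ratios of low genes. A count of 0 allows 3 counts, which is 0.0286 CPM for control cells and 0.100 CPM after 3 h. The text names the 40 lowest and 40 highest genes without predicted names, list members past 2-fold, the 3 lowest and 3 highest of each list, and cell type markers, apart from a few that are not reported here; further names were chosen after their values were seen, among them Stat3, Asns, Pou5f1 and Gm26917. Cells were thinned with a fixed seed. The comparison was tested on simulated counts with set ratios. These held counting error only, without a library effect or a shift of all genes, so the test does not cover either. edgeR 4.0.16 gave the TMM factors of an alternative scaling.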

Additional observations from a re-analysis of the deposited data

How the results depend on the processing

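No paired analysis was possible because each condition is 1 library, and for the same reason no replicate could be left out. Against 468 lower and 59 higher genes and a median of −0.28 (log2), scaling by median-of-ratios gave 192 lower, 121 higher and a median of −0.0601, and TMM factors gave 202, 120 and −0.0692; the genes still lower were all among the 468. A minimum mean of 50 CPM gave 103 lower and 20 higher of 3091 genes, and one of 1 CPM gave 848 and 202 of 13392, as each tests another set of genes. UMIs per cell without scaling, which keep the gap in depth, gave 8605 lower and 1 higher. The other alternatives (cell thresholds, mitochondrial genes or high-UMI cells left out, a pseudocount of 0.1 CPM, equal weight per cell, free RNA subtracted at 10% of UMIs, whole counting intervals) stayed within 1.5 times of both counts, from 336 to 598 lower and from 53 to 66 higher. Of 195 named genes, 127 stayed past 2-fold in every scaled setting and all 195 kept their side of the median gene. In that measure the list medians of WNT, primed, MYC, unfolded protein response, clock, G1, both histone lists, Polycomb, general transcription factor, mRNA decay and metallothionein genes changed sign around 0 in at least 1 setting. Counting from the median gene lowered 44 of 48 shares of lower genes by gene structure or abundance beyond their counting intervals. Depth limits low genes: Chac1 rests on 32 UMIs at 3 h.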
